A study of Mus musculus with 3530 samples.

Results

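Neurons of the medial prefrontal cortex of mice in the condition labelled Context-Only were compared by whether they held a sequencing read of the reporter transgene. The members were the 762 cells, of 3530 in the series, whose label ends in Context-Only. A cell with at least 1 count of the tdTomato transgene was called reporter-read (372 cells), and a cell with 0 was called reporter-free (390 cells). The cells came from 4 mice. Mouse 2 gave 56 reporter-read and 157 reporter-free cells, mouse 3 gave 198 and 79, mouse 4 gave 88 and 79, and mouse 5 gave 30 and 75.

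All animals were TRAP2;Ai14 mice of a contextual fear conditioning study, and the other conditions are labelled Fear-Recall, Fear-Only and Homecage. Single cells of the medial prefrontal cortex were released with papain and prepared by Smart-seq2, a plate method that copies and amplifies whole transcripts of individually collected cells. The reporter side was taken from the counts alone, within each mouse, so the animal is the replicate and both sides of a comparison come from the same animal. A second mouse numbered 5, with 46 reporter-read and 104 reporter-free cells, carries a label that does not end in Context-Only and was kept out of every main test. Its values are shown beside those of the 4 mice as an animal that the rule did not use. Strain, age, sex, tamoxifen dose, exposure schedule and the interval to collection are not given in the sources used here.

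TRAP2 places a tamoxifen-dependent Cre recombinase under the control of the Fos gene, an immediate early gene that neurons switch on briefly after strong activity. Ai14 carries tdTomato behind a stop cassette that Cre removes, so that a neuron active while tamoxifen is present keeps making the reporter afterwards. The reporter therefore records activity in a past window, whereas transcripts of Fos and other immediate early genes reflect the hours before collection. Cortical neurons are also active without conditioning, so reporter-labelled neurons occur in mice given only the context or left in the home cage.

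Because the cells were chosen on reporter counts, those counts are a description of the choice and carry no test. Among reporter-read cells, 24 held exactly 1 reporter count, just inside the rule, 110 held between 2 and 9, and 238 held at least 10, up to 476. Sample titles carry gate marks, pos and neg, which the sources used here do not define. In the gate marked neg, 6 of 68 cells of mouse 2 (8.82%), 7 of 58 cells of mouse 3 (12.1%) and 4 of 55 cells of mouse 4 (7.27%) were reporter-read. In the gate marked pos the shares were 34.5% of 145 cells in mouse 2, 87.2% of 219 in mouse 3 and 75% of 112 in mouse 4. Mouse 5 has no gate in its titles, and 28.6% of its 105 cells were reporter-read. A reporter-free call therefore took in many cells marked pos, most of all in mouse 2. In mice 2 and 3 the gates were on separate plates, so that plate and gate cannot be told apart there, while mouse 4 had both gates on 1 plate.

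The reporter-read cells held more genes. The median number of genes detected per cell was 6344 in reporter-read and 4097 in reporter-free cells of mouse 2, 7372 and 7196 in mouse 3, 7408.5 and 6695 in mouse 4, and 5338.5 and 5070 in mouse 5. Reporter-read cells were thus higher in 4 of 4 mice, by very different amounts. The mean difference was 851 ± 960 genes (SD, n = 4), and an exact two-sided sign-flip permutation test gave p = 0.13, the smallest that 4 mice allow. In the second mouse 5 the medians were 6567 and 4710. Reads per cell did not follow that order. The median was higher on the reporter-read side in 2 of 4 mice (mean log2 ratio 0.19 ± 0.378, SD, n = 4, exact permutation p = 0.5). With every cell thinned to 100000 reads and the sides as called, the difference was 586 ± 809 genes and in the same direction in 3 of 4 mice (SD, n = 4, exact permutation p = 0.25).

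Part of the gap lay in a small set of sparse cells, and without them the mean difference in genes per cell was 547. The 2 clusters with the fewest genes per cell held 64 Context-Only cells, of which 59 were reporter-free and 5 reporter-read. Mouse 2 supplied 53 of those reporter-free cells, 33.8% of its reporter-free side, against 8.93% of its reporter-read side. In mice 3 and 4 the reporter-free shares were 3.8% each and the reporter-read shares were 0%, and mouse 5 had none on either side. Leaving out mouse 2 gave a mean difference of 386 genes.

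**Figure D1:**
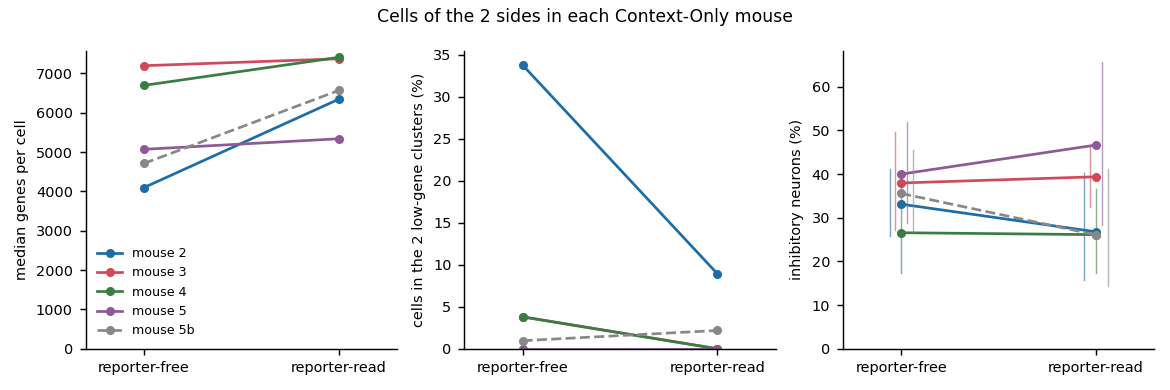
Median genes per cell, percent of cells in the 2 clusters of fewest genes, and percent of inhibitory neurons with exact 95% intervals, on the reporter-free and reporter-read sides of each mouse. Lines join the sides of a mouse, and the second mouse numbered 5 (5b) is dashed. Genes per cell are higher on the reporter-read side in every mouse plotted, by 2247 genes in mouse 2 and by 176 in mouse 3, whereas the inhibitory share has no common direction.

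Summed markers of other brain cells were highest for astrocytes on both sides. The 12 astrocyte markers summed to 529 to 576 CPM (a gene's reads scaled to the same total of gene reads in every sum) in reporter-read cells and to 589 to 656 in reporter-free cells. The reporter-read side was lower in each of the 4 mice. Slc1a2 was the most abundant of these markers, at a mean of 323 CPM, and the sum without it was not tested. Of the 11 markers tested singly, 5 were fitted higher in reporter-read cells and 6 lower. Their median log2 difference was -0.09, beside -0.04 over all genes. The median was 0.17 within excitatory neurons and -0.74 within inhibitory neurons. Aqp4, an astrocyte water channel, was the only 1 of the 12 under 1 CPM in every sum. Oligodendrocyte markers, led by Mbp at a mean of 125 CPM, summed to 106 to 422 and 81.8 to 249. Microglial markers summed to 24.3 to 48.7 and 17.03 to 67.9, and vascular markers to 4.27 to 13.7 and 4.67 to 21.9. Pdgfra, Olig2, Cldn5, Flt1, Kdr, Vtn and Pdgfrb, which define oligodendrocyte precursors, the oligodendrocyte lineage, endothelium and pericytes, stayed under 1 CPM. The part of the astrocyte transcripts in the gene differences below was not tested.

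The share of inhibitory neurons had no common direction between the sides. Inhibitory neurons, which release GABA, made up 15 of 56 reporter-read cells (26.8%) and 52 of 157 reporter-free cells (33.1%) in mouse 2. The shares were 39.4% of 198 and 38.0% of 79 in mouse 3, 26.1% of 88 and 26.6% of 79 in mouse 4, and 46.7% of 30 and 40% of 75 in mouse 5. The mean difference was 0.33 ± 5.37 percentage points (SD, n = 4, exact two-sided permutation p = 0.875), and its sign changed with several settings. Within the pos gate and the ungated plates alone the difference was -9.70 points.

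Among the 21 clusters, the excitatory one led by Myl4, Lypd1, Sla2 and Tshz2 had a lower share of reporter-read than of reporter-free cells, without passing the test. It held 17 reporter-read and 37 reporter-free cells. By mouse the reporter-read and reporter-free counts were 1 and 13 in mouse 2, 9 and 6 in mouse 3, 6 and 10 in mouse 4, and 1 and 8 in mouse 5. Its share averaged 4.12% of the reporter-read side and 9.8% of the reporter-free side, lower in 4 of 4 mice. The exact permutation p was 0.13, the smallest possible, and 1 after adjustment over the 21 clusters. In the other direction, the excitatory cluster led by Rprm and Ramp3 held 8.62% of the reporter-read and 6.51% of the reporter-free side, higher in 4 of 4 mice with the same p and adjusted p. Markers of Vip interneurons, cells that inhibit other interneurons, were highest in several inhibitory clusters. The larger ones held 42 reporter-read and 30 reporter-free cells, and 33 and 21 cells. Their shares were higher on the reporter-read side in 3 of 4 and in 2 of 4 mice. The remaining one, among the 2 clusters of fewest genes, held 2 reporter-read and 29 reporter-free cells. Since clusters were drawn from all genes of the same cells, their leading genes are not results.

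**Figure D2:**
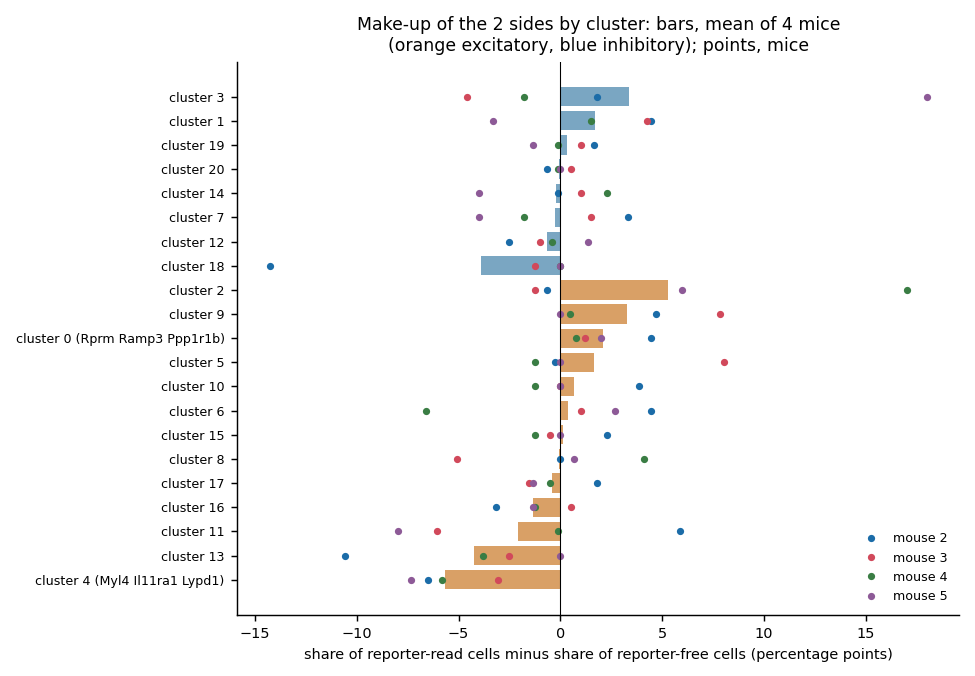
Share of reporter-read cells minus share of reporter-free cells in each cluster, in percentage points, with bars for the mean of the 4 Context-Only mice (orange excitatory, blue inhibitory), 1 point per mouse, and leading genes beside the clusters the text names by them. The Tshz2 cluster (cluster 4) averages 4.12% of reporter-read and 9.8% of reporter-free cells, and no cluster passes adjustment over the 21 clusters.

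No gene passed the test between the sides when all neurons of a mouse were summed. Counts were summed per mouse and side, giving 8 sums of 30 to 198 cells and 37509255 to 166680555 reads. In such a sum, more cells with a transcript and more transcript per cell cannot be told apart. The edgeR quasi-likelihood test with the mouse as a block called 0 of 16644 genes (0%) at an adjusted p of 0.05. The smallest adjusted p was 0.934, and 669 genes (4.02%) had an unadjusted p under 0.05, 328 of them higher and 341 lower in reporter-read cells. DESeq2, run on the same sums, called 15 genes higher and 11 lower. The genes named next are the 6 of smallest p in each direction, so their direction in the 4 mice goes with how they were chosen. Read against all genes, 6.6% were higher in 4 of 4 mice and 8.9% lower, and the sums of the sides did not overlap for 0.571% (higher) and 0.607% (lower).

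Nefm had the smallest p of the genes higher in reporter-read cells. It encodes the medium neurofilament subunit, part of the cytoskeleton of large axons, and lies on chromosome 14 from 68082590 to 68124846 on the minus strand (GRCm38). Its level was 135 CPM in mouse 2, 147 in mouse 3, 86.7 in mouse 4 and 159 in mouse 5 on the reporter-read side, and 39.4, 78.4, 34.3 and 73.2 CPM on the reporter-free side. All 4 reporter-read sums lay above all 4 reporter-free sums. The log2 difference was 1.28 ± 0.16 (SE; edgeR p = 0.000178 before and 0.934 after adjustment), and DESeq2 gave an adjusted p of 5.25e-08. In the second mouse 5 the levels were 121 and 47.9 CPM. The log2 difference was 1.57 within the pos gate and ungated plates alone. It was 0.58 when each cell was thinned to 100000 reads and the sides redrawn from the thinned reads. Redrawing moved cells to the reporter-free side. In the pos gate, reporter-read cells fell from 50 to 24 (mouse 2), 191 to 152 (mouse 3) and 84 to 64 (mouse 4). In mouse 5, without a gate, they fell from 30 to 20. Fewer reads and moved cells cannot be told apart in this or any later thinned value.

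Bok, a member of the BCL2 family of cell death regulators, was at 91.5, 79.3, 80.5 and 137 CPM in reporter-read and 42.7, 51.0, 54.3 and 76.9 CPM in reporter-free cells of mice 2 to 5. Slc6a17, a transporter of neutral amino acids into synaptic vesicles, was at 130, 100, 115 and 102 CPM against 65.2, 68.4, 83.4 and 57.0 CPM. The sums of these genes also did not overlap, with log2 differences of 0.77 ± 0.14 and 0.70 ± 0.14. When the reporter-free cells were weighted to the cluster make-up of the reporter-read side, Bok differed by 0.25 and Slc6a17 by 0.63. Lingo1, a membrane inhibitor of axon growth and myelination, was at 113, 220, 245 and 289 CPM against 62.6, 181, 141 and 127 CPM. Its sides overlapped because mouse 2 was low on both. Hs3st2, a heparan sulfate sulfotransferase, and Rasl11b, a small GTPase, differed by 0.62 ± 0.12 and 0.58 ± 0.12 on the log2 scale. Their weighted values were 0.39 and 0.21, that of Lingo1 was 0.48, and Hs3st2 was at 0.27 with thinned cells. None of these passed edgeR, and all were higher in the reporter-read cells of the second mouse 5 as well.

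In the other direction stood Penk, the precursor of the enkephalin opioid peptides, on chromosome 4 from 4133531 to 4138819 (minus strand). Reporter-read cells held 470, 653, 373 and 356 CPM in mice 2 to 5, and reporter-free cells 775, 1320, 753 and 585 CPM. Each mouse was lower on the reporter-read side, although the highest reporter-read sum exceeded the lowest reporter-free sum. The log2 difference was -0.88 ± 0.10 (edgeR p = 9.39e-05 before and 0.934 after adjustment; DESeq2 adjusted p = 1.4e-08), and the second mouse 5 held 196 and 595 CPM. The value depended on how the sides were drawn: it was -1.18 within the pos gate and ungated plates, -0.14 for reporter-read pos against reporter-free neg cells, and -0.045 when each cell was thinned and the sides redrawn from the thinned reads.

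Myl4 and Tshz2 were both lower in reporter-read cells. Both lead the cluster whose share was lower there, a difference that did not pass the test. Tshz2, a zinc finger transcription factor of deep-layer neurons, was at 5.94, 19.3, 7.14 and 8.88 CPM in reporter-read and 28.4, 41.3, 28.3 and 24.0 CPM in reporter-free cells, without overlap (log2 difference -1.70 ± 0.30). Myl4, a myosin light chain, was at 75.8, 77.3, 59.8 and 18.5 CPM against 165, 136, 170 and 73.5 CPM (-1.37 ± 0.22). With the reporter-free cells weighted in the same way, Myl4 differed by -0.51 and Tshz2 by -1.16. Rgs10, a regulator of G protein signalling, was at 110, 146, 62.2 and 67.0 CPM against 298, 292, 93.2 and 93.6 CPM (-0.88 ± 0.19). Its difference was -1.53 within the pos gate and ungated plates and turned to 0.38 for reporter-read pos against reporter-free neg cells. Lage3, a subunit of a tRNA-modifying complex, and Paf1, a subunit of a transcription elongation complex, differed by -0.74 ± 0.16 and -0.59 ± 0.14. Paf1 was the only one of the 12 named genes whose direction in the second mouse 5 was opposite (146 and 139 CPM).

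**Figure D3:**
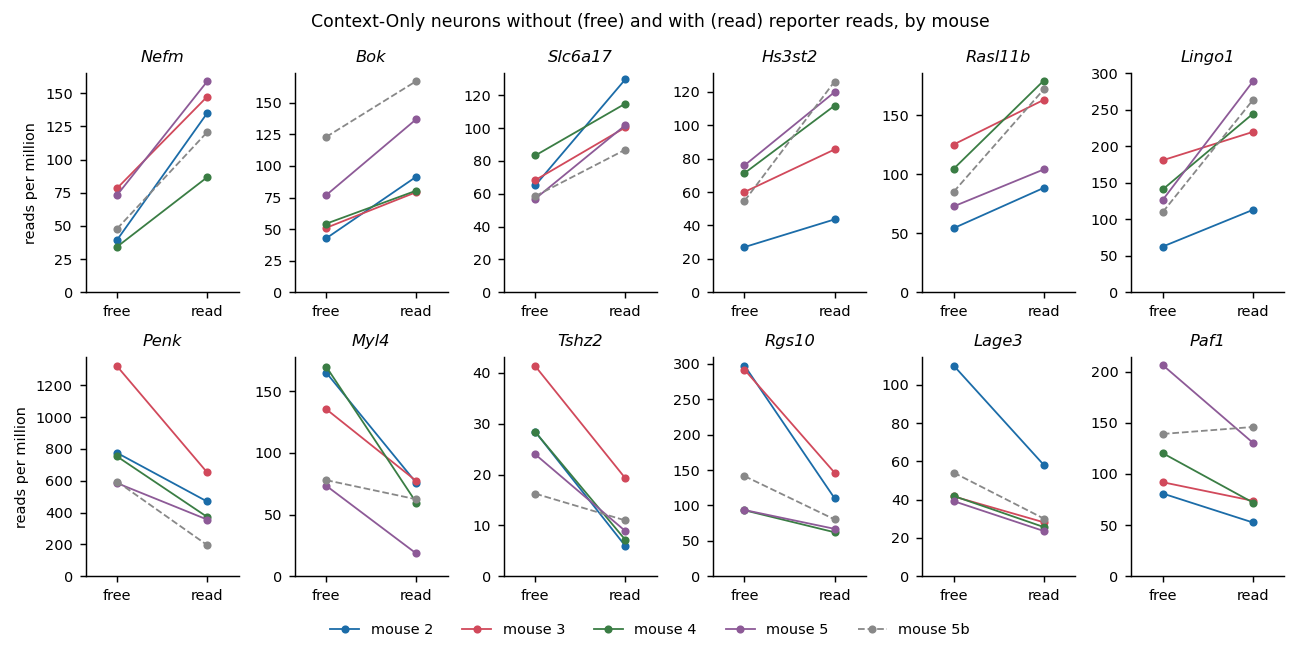
Levels of the 12 genes of smallest p in all neurons, in CPM on axes from 0, with each mouse's reporter-read and reporter-free sums joined by a line. Nefm lies between 86.7 and 159 CPM in reporter-read and between 34.3 and 78.4 CPM in reporter-free sums of the 4 mice, and the second mouse numbered 5 (5b) is dashed.

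With excitatory neurons alone, Nefm again had the smallest p, and the comparison called 0 of 15530 genes (0%) by edgeR. The sums held 16 to 120 cells and 23317086 to 106265199 reads. The smallest adjusted p was 0.770, 589 genes (3.79%) had an unadjusted p under 0.05, and DESeq2 called 13 higher and 8 lower. Nefm was at 170, 230, 112 and 255 CPM in reporter-read and 60.9, 115, 47.7 and 116 CPM in reporter-free excitatory neurons of mice 2 to 5 (log2 difference 1.21 ± 0.12, edgeR adjusted p = 0.770). The lowest reporter-read value, in mouse 4, lay just below the highest reporter-free value, in mouse 5. Leaving out the Tshz2 cluster, a choice made after its values were seen, Nefm stood at 171, 247, 123 and 262 CPM against 66.4, 130, 49.8 and 137 CPM. With the same cells left out, Myl4 was at 75.4, 40.2, 35.4 and 19.6 CPM against 68.2, 72.0, 46.4 and 15.01 CPM, and no longer lower in every mouse.

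Nefm differed by 0.66 in excitatory neurons when cells were thinned and the sides redrawn. Among the other excitatory genes of smallest p, Stx1a, a syntaxin of the machinery that fuses synaptic vesicles, was at 373, 859, 806 and 871 CPM against 234, 720, 580 and 478 CPM (0.56 ± 0.11). Thap7, a transcriptional regulator, was at 129, 69.4, 64.0 and 83.9 CPM against 73.5, 33.4, 46.5 and 37.7 CPM (0.87 ± 0.17). Neto2, an auxiliary subunit of kainate receptors, was at 18.6, 17.9, 18.9 and 14.1 CPM against 46.1, 25.7, 43.6 and 58.2 CPM. The sides of Neto2 did not overlap (-1.27 ± 0.31), nor did those of Tshz2 (-1.77 ± 0.32). Lingo1, Hs3st2 and the phosphatase gene Dusp3 were higher by 0.70 ± 0.14, 0.59 ± 0.13 and 0.47 ± 0.10, and Lypd1, Chrac1 and Exosc7 were lower by log2 values of -0.58 ± 0.13, -0.74 ± 0.18 and -0.64 ± 0.16. All 12 of these genes lay on the same side of 0 in the second mouse 5. They were chosen by smallest p, so a lack of overlap goes with that choice. The shares of all genes without overlap, or with the same direction in that mouse, were not counted within excitatory neurons.

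In inhibitory neurons, Penk had the smallest p, and 0 of 13049 genes (0%) passed edgeR. These sums were smaller, with 14 to 78 cells and 14192169 to 63018813 reads, and the median SE of genes at a mean log2 CPM of 5 or more was 0.33 against 0.18 in excitatory neurons. Unadjusted p was under 0.05 for 372 genes (2.85%), and DESeq2 called 16 higher and 16 lower. Penk was at 1324, 1624, 1386 and 909 CPM in reporter-read and 2058, 3545, 2599 and 1492 CPM in reporter-free inhibitory neurons, with 680 and 1417 CPM in the second mouse 5. Every mouse was lower on the reporter-read side, and the sides overlapped because mouse 5 was low on both (-0.87 ± 0.16, edgeR p = 0.000792 before and 0.9998 after adjustment).

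Penk is among the leading genes of a cluster led by Vip markers, so its level was also read within the clusters where Vip markers were highest, a choice made after its values were seen and given without a test. Penk was at 2880 CPM in reporter-read and 5014 CPM in reporter-free cells of mouse 3, at 2576 and 4493 CPM in mouse 4, and at 1101 and 3097 CPM in mouse 5. Mouse 2 had only 8 reporter-read cells there and gives no value. Vip itself had no common direction in the same cells, at 37426 and 34772, 27189 and 33309, and 17572 and 24971 CPM. The clusters themselves make up different parts of the 2 sides here, and that part was not tested. Over all inhibitory neurons, Penk differed by -0.28 when cells were thinned and the sides redrawn.

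Junb, an AP-1 partner of Fos, was the immediate early gene of smallest p in inhibitory neurons. It was at 184, 186, 155 and 242 CPM in reporter-read and 87.2, 134, 76.9 and 118 CPM in reporter-free cells, without overlap (0.87 ± 0.21). The second mouse 5 had the opposite order, at 193 and 293 CPM. Nrxn2, a presynaptic adhesion protein, was at 202, 104, 94.4 and 122 CPM against 72.6, 78.1, 36.0 and 51.3 CPM. Trp53i11 was at 119, 149, 177 and 158 CPM against 36.8, 100.5, 87.6 and 45.0 CPM. Neither gene's sides overlapped, with log2 differences of 1.11 ± 0.27 and 1.24 ± 0.29, and both were higher in the second mouse 5. Nrxn2 differed by 0.41 with thinned cells and by 0.16 for cells of at least 10 reporter counts against 0. Among genes with lower values, Hmgn2, a nucleosome-binding protein, was at 182, 200, 195 and 114 CPM against 274, 257, 272 and 248 CPM, again without overlap (-0.67 ± 0.19). Rgs10 differed by -0.78 ± 0.16 and Trappc2l, a component of a vesicle tethering complex, by -0.98 ± 0.21. Of the 12 genes of smallest p, 10 had the same direction in the second mouse 5. Here too a lack of overlap goes with the choice by smallest p. The shares of all genes without overlap, or with the same direction in that mouse, were not counted within inhibitory neurons.

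A common difference with the class held fixed was sought over both classes in 1 fit, and 0 of 16498 genes (0%) passed edgeR, with 802 (4.86%) at an unadjusted p under 0.05. Its 16 sums were paired by mouse and class, so the 2 pairs of a mouse were treated as independent, though the animal is the replicate. DESeq2 called 20 higher and 25 lower. Nmt2, which attaches myristate to proteins, differed by 0.55 ± 0.10, Slc6a17 by 0.78 ± 0.17, and Sstr2, a somatostatin receptor, by 0.63 ± 0.14. Ndufb10, a subunit of mitochondrial complex I, differed by -0.47 ± 0.10, and Vkorc1, which recycles vitamin K, by -1.03 ± 0.24. None of these passed adjustment over all genes.

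The test of whether the reporter difference itself differed between inhibitory and excitatory neurons called 2 of 16498 genes (0.0121%), Gad2 and Dlx1, with 621 at an unadjusted p under 0.05 and 66 called by DESeq2. Gad2 makes GABA and Dlx1 is a transcription factor of interneurons, and both helped name the classes. The calls (edgeR adjusted p = 0.00026 and 0.0153) came from excitatory sums, of which most are at or near 0 for both genes. Gad2 was at 0.0164, 0, 0 and 0 CPM in reporter-read excitatory sums and 75.9, 0, 0.0131 and 2.72 CPM in reporter-free ones. Dlx1 was at 0 CPM in all 4 reporter-read sums and at 13.9, 0.0658, 0.0394 and 0.288 CPM in the reporter-free sums. The highest levels lay in reporter-free excitatory cells of mouse 2. Without mouse 2, or with cells under 4000 genes left out, 0 genes passed, whereas 2 passed with the 2 sparse clusters left out. In inhibitory neurons the same genes had no common direction: Gad2 was at 443, 771, 1065 and 514 CPM against 624, 892, 913 and 404 CPM.

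Activity genes were looked at next, because the reporter marks past activity through Fos. Among 30 immediate early genes, 29 passed the filter on low counts, and 0 passed edgeR. Of these 29, 18 had a fitted value above 0 and 11 below, with 7 higher and 1 lower at an unadjusted p under 0.05. The median log2 difference was 0.26, beside -0.04 over all genes, of which 46.3% lay above 0. By mouse, 16, 16, 21 and 17 of the 29 were higher on the reporter-read side in mice 2 to 5, with medians of 0.10, 0.04, 0.61 and 0.11, and 22 in the second mouse 5. The counts were close to an even split in 3 of the 4 mice, and mouse 4 stood above the others.

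The members of smallest p were Egr4, Egr1, Nr4a1 and Ier5. Egr4, a zinc finger transcription factor on chromosome 6 from 85511121 to 85513589 (minus strand), was at 36.8, 28.7, 18.5 and 124 CPM in reporter-read and 20.2, 20.0, 5.9 and 44.5 CPM in reporter-free cells. Every mouse was higher on the reporter-read side, mouse 5 was high on both, and the sides overlapped (1.12 ± 0.24, edgeR p = 0.0033 before and 0.934 after adjustment; DESeq2 adjusted p = 0.0181). The second mouse 5 gave 142 and 50.3 CPM, the pos gate and ungated plates alone gave 1.22, and thinned cells gave 0.51. Egr1, its abundant relative, was at 531, 678, 584 and 1051 CPM against 454, 482, 369 and 742 CPM (0.46 ± 0.11). Nr4a1, an orphan nuclear receptor, was at 399, 279, 257 and 386 CPM against 280, 234, 133 and 321 CPM (0.48 ± 0.14). Ier5 differed by 0.52 ± 0.18. With thinned cells the values were 0.28 for Egr1, 0.21 for Nr4a1 and 0.30 for Ier5, and with the reporter-free cells weighted to the reporter-read cluster make-up they were 0.23, 0.18 and 0.35.

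Fos, Arc and Npas4 were added outside the rule for named genes, Fos because it drives the recombinase and the others as widely used activity markers. Fos was at 276, 361, 397 and 288 CPM in reporter-read and 256, 384, 236 and 222 CPM in reporter-free cells. It was higher in 3 of 4 mice, lower in mouse 3, and the difference did not pass (0.28 ± 0.15, edgeR p = 0.114 before adjustment), with -0.035 within the pos gate and ungated plates, 0.054 with thinned cells and 0.61 for reporter-read pos against reporter-free neg cells. Arc, which acts at synapses, was at 149, 156, 253 and 215 CPM against 137, 151, 137 and 225 CPM (0.24 ± 0.18), so that the gap lay in mouse 4. In the second mouse 5, Arc was at 795 and 206 CPM. Npas4 was at 34.0, 17.5, 30.2 and 15.1 CPM against 39.4, 25.9, 17.1 and 25.1 CPM, higher only in mouse 4 (-0.19 ± 0.31). The sums of all these genes overlapped between the sides.

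**Figure D4:**
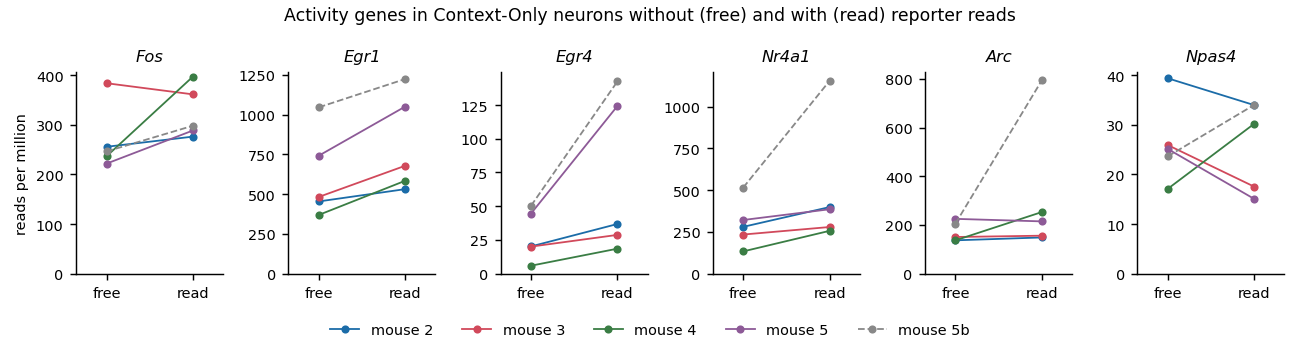
Levels of activity genes in CPM on axes from 0, with the reporter-free and reporter-read sums of each mouse joined by a line and the second mouse numbered 5 (5b) dashed. Egr4, Egr1 and Nr4a1 are higher on the reporter-read side in all 4 mice, whereas Fos, Arc and Npas4 have lines in both directions.

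Late activity-regulated genes gave a similar split, with 13 of 21 above 0 and 8 below, 3 higher and 1 lower at an unadjusted p under 0.05 and a median of 0.24. Vgf, a secreted neuropeptide precursor, was at 53.0, 99.3, 50.3 and 58.7 CPM against 31.3, 102, 26.0 and 13.7 CPM (0.92 ± 0.34, and 0.56 without mouse 5). Rgs4 and Cdkn1a differed by 0.38 ± 0.15 and 0.46 ± 0.18, or by 0.087 and -0.050 with thinned cells. Penk belongs to this list too and lies in the other direction. None of the 21 passed edgeR, and the number higher by mouse was 13, 9, 18 and 10, so that mouse 4 again had the most.

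Marker lists of the cortical layers lay on both sides of 0. Over all 16644 genes tested, 46.3% lay above 0, and 341 were lower at an unadjusted p under 0.05 by edgeR. All 15 deep-layer markers were tested, of which 4 lay above 0 and 11 below, 4 of them at an unadjusted p under 0.05, with a median of -0.34. Etv1, Lypd1 and Sla2, deep-layer markers that also lead the Tshz2 cluster, differed by -0.42 ± 0.17, -0.39 ± 0.12 and -1.35 ± 0.47, and by 0.053, 0.052 and -0.037 with the make-up weighted. With the cluster make-up weighted the list's median was -0.01, and it was 0.06 within the pos gate and ungated plates, where all genes had a median of 0.09. The 7 middle-layer markers tested had 5 above 0 and a median of 0.46, and the 10 upper-layer markers had 4 above 0 and a median of -0.29. The middle-layer median was 0.11 with the make-up weighted, and the upper-layer median was 0.03 weighted and 0.07 without mouse 5. General excitatory markers lay above 0 for 8 of 8, with a median of 0.28, and Nrgn, a postsynaptic calmodulin-binding protein, was at 575, 523, 233 and 522 CPM against 378, 490, 195 and 306 CPM (0.42 ± 0.13, and 0.15 with thinned cells). The median of that list was -0.10 for reporter-read pos against reporter-free neg cells.

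Interneuron lists were mostly below 0, and the general inhibitory markers had 9 of 12 below 0 with a median of -0.26. That median was 0.05 without mouse 2 and 0.52 for reporter-read pos against reporter-free neg cells. The Pvalb list had 6 of 7 tested members below 0 and a median of -1.30, or -0.32 without mouse 2, with Cox6a2, a mitochondrial subunit of fast-spiking interneurons, at 29.5, 9.85, 0.859 and 2.51 CPM against 71.6, 13.9, 2.18 and 12.2 CPM. The Sncg list had 7 of 8 below 0, the Sst list 5 of 7 (median -0.24, and 0.18 without mouse 2) and the Lamp5 and Ndnf list 5 of 8, whereas the Vip list was evenly split at 4 and 4. Ndnf was at 0.413, 1.65, 16.01 and 0.587 CPM against 5.14, 11.2, 28.9 and 8.75 CPM, and the second mouse 5 had the opposite order at 15.04 and 7.74 CPM. Neuropeptide precursors had 16 of 20 below 0 and a median of -0.33, which was -0.10 without mouse 2 and 0.48 for reporter-read pos against reporter-free neg cells. Over all genes tested, 8932 of 16644 lay below 0. Within inhibitory neurons alone, the medians were -0.04 for the general, 0.03 for the Sst and 0.14 for the Vip list. The Pvalb, Sncg and Lamp5 and Ndnf lists were below 0 there too, at -1.18, -0.28 and -0.29. Counts of interneurons of a type per side are small, and none of the members passed edgeR.

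Most genes of the translation and respiration machinery had fitted values below 0, without passing the test singly. Of 84 cytosolic ribosomal protein genes, 6 lay above 0 and 78 below, 11 of the latter at an unadjusted p under 0.05, with a median of -0.19. Of 77 nuclear genes for oxidative phosphorylation, 6 lay above 0 and 71 below, 17 at an unadjusted p under 0.05, with a median of -0.26. Over all 16644 genes tested, 8932 lay below 0, 341 of them at an unadjusted p under 0.05 by edgeR. Ndufb10 was at 825, 380, 280 and 296 CPM against 1270, 415, 369 and 442 CPM (-0.44 ± 0.13), and Uqcrb, of complex III, differed by -0.37 ± 0.11. Without mouse 2 the medians were -0.17 for respiration and -0.10 for ribosomal genes, and without the 2 sparse clusters they were -0.19 and -0.10. The medians by mouse were -0.41, -0.06, -0.22 and -0.28 for respiration and -0.35, -0.11, -0.16 and -0.05 for ribosomal genes. Mouse 2, with the widest gap in genes per cell, had the most negative median in both lists. The gap was 713.5 genes in mouse 4 and 268.5 in mouse 5. Their respiration medians were -0.22 and -0.28, and their ribosomal medians -0.16 and -0.05. The part of genes per cell was not tested. Both lists were also below 0 within each class, with medians of -0.22 and -0.17 in excitatory and -0.31 and -0.24 in inhibitory neurons. In reporter-read pos against reporter-free neg cells the medians were 0.04 and 0.11, the only one of 16 settings with a positive sign. Ribosomal protein genes have many near-identical copies, so reads could be split among them by a counting step that is not known. The 13 genes of the mitochondrial genome had 11 below 0 and a median of -0.09.

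Lists of synaptic, channel and chaperone genes had medians between -0.06 and 0.17, beside -0.04 over all genes, of which 46.3% lay above 0. Glutamate receptor and scaffold genes had 21 of 35 above 0 (median 0.10), synaptic vesicle genes 24 of 35 (0.10), potassium channel genes 19 of 34 (0.03), GABA genes 8 of 20 (-0.06), chaperones 11 of 21 (0.03) and CREB family genes 8 of 12 (0.17). In the vesicle list Stx1a was at 310, 571, 630 and 575 CPM against 158, 491, 445 and 312 CPM (0.63 ± 0.14, DESeq2 adjusted p = 0.042), and it differed by 0.34 with the make-up weighted. It was the only member of that list at an unadjusted p under 0.05.

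**Figure D5:**
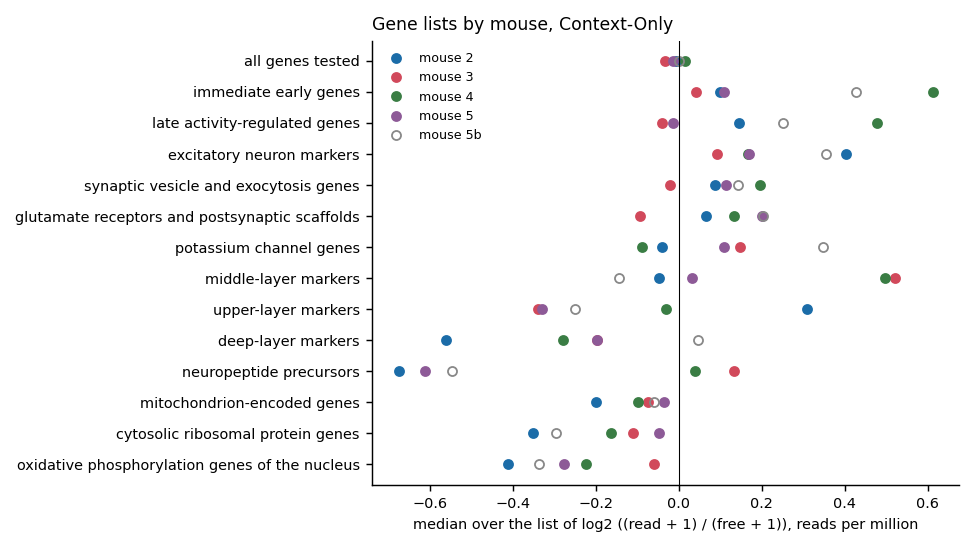
Median over the members of each gene list of the log2 ratio of reporter-read to reporter-free CPM, with 1 added to each, with 1 point per mouse and the second mouse numbered 5 (5b) as an open circle. Immediate early genes have medians of 0.10, 0.04, 0.61 and 0.11 in mice 2 to 5, and oxidative phosphorylation genes -0.41, -0.06, -0.22 and -0.28.

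The second mouse 5 gave the same measurement in an animal that had no part in the fit. Of all genes tested, 57.0% of those fitted above 0 and 56.7% of those fitted below 0 had the same direction there, and among genes at an unadjusted p under 0.05 the shares were 76.8% and 71.6%. Of the genes at a mean log2 CPM of 4 or more, 67.0% of the 3551 fitted above 0 were also higher in its reporter-read cells, and 60.7% of the 3631 fitted below 0 were also lower. Among the latter genes at an unadjusted p under 0.05 the shares were 213 of 250 (85.2%) and 185 of 230 (80.4%). In that mouse, too, reporter-read cells had more genes per cell, and its ribosomal and respiration medians were -0.29 and -0.34. The part of genes per cell in the gene differences was not tested.

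The same comparison in the other conditions was set beside Context-Only, as a test of whether the reporter difference depends on condition. The interaction called 0 of 18686 genes (0%) against Fear-Recall (4 mice, 610 at an unadjusted p under 0.05, 24 by DESeq2), 0 of 19097 (0%) against Fear-Only (3 mice, 480 and 0) and 0 of 18040 (0%) against Homecage (3 mice, 686 and 55). Egr4 was higher in reporter-read cells of 4 of 4 Fear-Recall, 3 of 3 Fear-Only and 3 of 3 Homecage mice. Nefm was higher in 3 of 4, 3 of 3 and 3 of 3. Myl4 was lower in 4 of 4, 3 of 3 and 2 of 3. Nr4a1, Vgf and the upper-layer marker Mef2c were each higher in 4 of 4, 3 of 3 and 3 of 3. These genes therefore had the same order in most mice of every condition. The share of all genes with such an order was not counted. Mef2c does not stand for its list, as 4 of the 10 upper-layer markers lay above 0 in Context-Only, with a median of -0.29.

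Penk and Tshz2 were among the genes without such a common order. Penk was lower in reporter-read cells of 2 of 4 Fear-Recall, 1 of 3 Fear-Only and 2 of 3 Homecage mice. Tshz2 was lower in 1 of 4 Fear-Recall mice and in all mice of the other conditions, and its log2 difference was more negative in Context-Only than in Fear-Recall by -1.54 ± 0.42 (edgeR p = 0.00449 before and 1 after adjustment). The gene of smallest p against Fear-Recall with a lower value in Context-Only was Rgs16, a regulator of G protein signalling. It was at 97.6 ± 11 CPM in reporter-read and 26.7 ± 13.1 CPM in reporter-free cells of Fear-Recall (SD, n = 4) and at 62.8 ± 28.2 and 57 ± 27 CPM in Context-Only (SD, n = 4). The interaction was -1.82 ± 0.32 (edgeR p = 0.000279 before and 1 after adjustment), and DESeq2 called it. Against Fear-Only the values were -1.20 ± 0.27 for Psat1 and 0.90 ± 0.22 for Gbf1, and against Homecage 1.81 ± 0.46 for Daglb and -3.53 ± 0.84 for Ndnf. With thinned cells the values were -0.77 for Tshz2, -1.13 for Rgs16, -0.51 for Psat1, 0.54 for Daglb and -2.39 for Ndnf. Across 5025 genes at a mean log2 CPM of 5 or more, the mean log2 ratio in Context-Only had a Pearson correlation of 0.418 with that in Fear-Recall, 0.319 with Fear-Only and 0.247 with Homecage (Spearman 0.463, 0.327 and 0.271). The points are genes, not independent replicates, so no p is given.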

How the data were processed

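The authors deposited whole-number counts of reads per gene and cell, made with their own processing. Per the submitters' processing notes, Bowtie 0.12.2 and the builds mm8 and mm10 were used, with no role given, and the reads were counted with a tool not given in the sources used here. Of 3530 cells, 3318 were used. The remaining 212 columns, of a set with no Context-Only animal, could not be matched by a shared column prefix. No cells were identical. The reporter, 1 of the 23355 genes listed, entered no library size and no test.

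Context-Only cells held 100176 to 3322095 reads (median 993400). Cells were clustered with scanpy 1.11.5 (2000 variable genes, 30 components, 15 neighbours, Leiden 1 through leidenalg 0.10.2), and each cluster was called excitatory or inhibitory by the higher mean of 2 marker lists. Cells were collected singly on plates, so no doublet caller was run. Raw counts were summed per mouse and side (10 or more cells) and tested with edgeR 4.0.16 (TMM, filterByExpr with a minimum count of 10 and total of 15, quasi-likelihood test, Benjamini-Hochberg adjustment at 0.05). Both sums of a pair come from the same animal, which is the block. In the fits over both classes the block is the pair of a mouse and class. An SE is the log2 difference divided by the square root of F. CPM carries no TMM scaling. Alternatives used DESeq2 1.42.0, other scaling, filters, gates, thresholds and mice. Shares and medians were compared by exact sign flips over mice. Only the all-neuron and inhibitory fits were run on simulated data with planted changes, and the outcome is not reported here.

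The members, 26 gene lists (517 of 521 genes in the table), comparisons and alternatives were chosen with earlier results of these data known. Named genes are, where none passed, the 6 of smallest p in each direction at a mean log2 CPM of 4 or more, and 2 to 4 members of smallest p of each list. Predicted genes are not named, and some items are not reported here. Positions are those of the same symbol in GENCODE vM21.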

Additional observations from a re-analysis of the deposited data

Results flagged for a closer look

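Values far from the others of their group were looked for in 120 groups of 4 mice, of which chance flags about 1 in 20. In all neurons, Lage3 stood high in mouse 2 on both sides, at 58.2 CPM in reporter-read and 110 CPM in reporter-free cells. On the reporter-free side, Ier5 in mouse 3 (68.1 CPM), Arc in mouse 5 (225 CPM), Cox6a2 in mouse 2 (71.6 CPM) and Ndufb10 in mouse 2 (1270 CPM) stood above the other mice. On the reporter-read side, Vgf in mouse 3 (99.3 CPM) and Ndnf in mouse 4 (16.01 CPM) stood high, and Nrgn in mouse 4 (233 CPM) stood low. In excitatory neurons, Stx1a in reporter-read cells of mouse 2 (373 CPM) and Hs3st2 in reporter-free cells of mouse 2 (35.9 CPM) were low, and Egr4 in reporter-read cells of mouse 5 (199.9 CPM) was high. The share of cells in the 2 sparse clusters differed between the sides by -24.8 percentage points in mouse 2, far from the other 3 mice.

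The reporter difference of inhibitory minus excitatory neurons had a fitted log2 value of 11.28 for Gad2 and 10.35 for Dlx1. Several excitatory sums are at 0 for these genes, so the fitted values depend on the prior count and are no bound. Cox6a2 was lower in reporter-read cells of 4 of 4 Context-Only mice and higher in 3 of 3 Fear-Only mice, where the mean difference was 9.70 CPM. The test of that difference did not pass (log2 -2.51 ± 0.79, edgeR adjusted p = 1).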

How the results depend on the processing

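Every count of genes past an adjusted p of 0.05 was 0 with edgeR under all alternatives except those of the difference between classes. DESeq2 called 26 genes in all neurons, 21 in excitatory and 32 in inhibitory neurons, 45 in both classes together, 66 for the difference between classes, 24 against Fear-Recall and 55 against Homecage. Without the mouse as a block, which pairs both sides of an animal, edgeR called 0 genes in all neurons and 1 gene for the difference between classes, and the block changed no other count. That count of 2 was 0 to 2 with 1 mouse left out (0 without mouse 2), 8 with the second mouse 5, 7 with cells thinned, 1 with a reporter count of at least 10 and 0 with cells of at least 4000 genes, an alternative chosen after seeing the data.

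The difference in inhibitory share, 0.33 points, turned to -1.64 with the second mouse 5, to -9.70 within the pos gate and ungated plates and to -2.73 at the finer clustering, and ranged from -1.79 to 2.55 with 1 mouse left out. Of 1109 gene values under alternatives, 10 turned sign. Within the pos gate and ungated plates, Fos was -0.035 and Etv1 0.10. For reporter-read pos against reporter-free neg cells, Rgs10 was 0.38, Npas4 0.058 and Cox6a2 0.23. With cells thinned, Cdkn1a was -0.050 and, in inhibitory neurons, Tuba8 -0.13. With the cluster make-up weighted, an alternative chosen after seeing the data, Etv1 was 0.053 and Lypd1 0.052. With 1 mouse left out, Npas4 ranged from -0.49 to 0.016. The cause was not tested.

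Leaving out the 2 sparse clusters, also chosen after seeing the data, gave 0 calls in each fit within Context-Only except the difference between classes. Limits are 4 mice and sides of as few as 14 cells, which leave a median SE of 0.17 in all neurons and 0.33 in inhibitory neurons for genes at a mean log2 CPM of 5 or more.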
